A study of Mus musculus with 8 samples.

Results

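Mitochondrial ribosomal protein genes were taken as every gene symbol that starts with Mrpl or Mrps and a number. The rule found 77 genes among the 24421 symbols counted, 48 named for the large subunit (Mrpl) and 29 for the small subunit (Mrps). They were followed in naive CD4+ T cells purified with an isolation kit from spleens of C57BL/6 male mice aged 6 to 8 weeks, either wild type or carrying floxed Pcbp1 alleles with a Cre recombinase driven by Cd4, which acts in developing T cells and so in more than the CD4+ lineage. The product of Pcbp1 (hnRNP E1) binds C-rich stretches of RNA. Each title, E1KO and E1WT, had 4 libraries. The genotype field assigns Pcbp1+/+ with Cd4-Cre to the libraries titled E1KO and floxed Pcbp1 with Cd4-Cre to those titled E1WT, so by that field both groups carry the Cre, while the protocol text calls the controls wild type. Libraries are therefore named by title, and folds are given as E1KO-titled relative to E1WT-titled.

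The mitochondrial ribosome translates the few mRNAs of the mitochondrial genome, which encode core subunits of the respiratory chain and the ATP synthase. Its RNAs come from the mitochondrial genome, but all of its proteins are encoded in the nucleus, made in the cytosol and imported. Some are descended from bacterial ribosomal proteins and others are found only in mitochondria. In T cells, mitochondrial translation is known to be needed for the growth of respiratory capacity that goes with activation.

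The libraries held 28264655 to 36738202 gene counts each, and 50082 to 75151 of these fell on the 77 genes. Pcbp1, scaled to the gene counts of each library as CPM, stood at 38.8 to 42.4 CPM in the E1KO-titled libraries and at 196 to 240 CPM in the E1WT-titled ones, an order that matches the titles and contradicts the genotype field. Although all mice are labelled male, Xist, the RNA of the inactive X chromosome, stood at 378 to 433 CPM in E1KO-titled and at 0.544 to 2.82 CPM in E1WT-titled libraries. What differed with the title and what differed with Xist cannot be told apart, and 0 of the 77 genes lie on chromosome X or Y. Cd4 was present at 852 to 1032 CPM in all 8 libraries, and the 10 CD4 T cell markers summed to 6257 to 6531 CPM in E1KO-titled and 6802 to 7059 CPM in E1WT-titled libraries, with 1 of 10 called higher and 4 lower. Counts outside genes made up 28.2% to 30.8% of E1KO-titled and 33.3% to 37.0% of E1WT-titled files.

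Markers of other cells differed between the same libraries. Over all tested genes 12.2% were called higher and 11.1% lower. Of 7 monocyte and macrophage markers 5 were called higher, and they summed to 84.8 to 101 CPM against 36.7 to 44.6 CPM. Of 6 tested erythroid markers 4 were called higher, and the 10 listed summed to 111 to 147 CPM against 39.8 to 55.7 CPM, with the globin genes Hbb-bs, Hbb-bt, Hba-a1 and Hba-a2 listed at 0 in every library. Dendritic markers were called higher in 5 of 7 cases (61.2 to 76.7 against 47.8 to 61.2 CPM) and NK markers in 3 of 6 (141 to 148 against 120 to 128). B cell markers were called higher in 2 of 6 (193 to 212 against 157 to 195) and plasma cell markers in 1 of 5 (840 to 1050 against 550 to 771). Most of the plasma cell sum was Jchain, the 1 called, at 694 to 892 against 423 to 635 CPM. Most of the erythroid sum was Car1, at 86.1 to 120 against 27.9 to 42.8 CPM. Neutrophil markers showed 1 of 4 tested higher and 1 lower (37.3 to 42.8 against 34.0 to 37.0 CPM), and CD8 markers 0 of 2 higher and 1 lower (20.6 to 28.8 against 24.6 to 30.7 CPM). The part of these cells in the values of the ribosomal protein genes was not tested. In such bulk samples fewer cells of a type and less RNA per cell cannot be told apart.

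All 77 genes were expressed and all passed the expression filter. Together they took 0.151% to 0.222% of the gene counts of a library. Per kilobase of exon, which allows genes to be compared with each other, their median level over the 8 libraries was 14.5 CPM per kb, against 8.14 CPM per kb for all 13333 genes tested. The highest level in the family was that of Mrpl52, a large subunit protein found only in mitochondria, at 102 ± 21.6 CPM per kb (SD, n = 8), above 96.2% of tested genes with a known length. Mrpl23 (56.9 ± 9.41), Mrpl30 (54.0 ± 5.45) and Mrpl33 (52.6 ± 10.5 CPM per kb), all 3 descended from bacterial proteins of the large subunit, came next. These 3 neighbours did not differ beyond their spread. The first place of Mrpl52 rests on an exon length of 418 bp. In CPM not scaled to length, its mean over the 8 libraries was 42.8, below 77.7 for Mrpl9.

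In the small subunit the order per kilobase was led by Mrps34, a mitochondrion-specific protein, at 37.9 ± 6.26 CPM per kb (SD, n = 8). Mrps15, a homolog of bacterial S15, which binds the rRNA of the small subunit, followed at 34.7 ± 2.65, with Mrps23 at 32.6 ± 4.90 and Mrps21 at 31.8 ± 8.09 CPM per kb. Neighbours in this order differed by less than the larger of their SDs. At the other end stood Mrpl47 (2.16 ± 0.38) and Mrpl17 (2.77 ± 0.33) in the large subunit, and Mrps25 (2.27 ± 0.36) and Mrps35 (4.86 ± 0.31 CPM per kb) in the small. The lengths behind these 4 low values are the union of exons of annotated RefSeq transcripts, 3364, 7300, 6073 and 4162 bp, so a long 3′ end that these cells do not use lowers the level. Mrps25 also shares 3533 exon bases with Nr2c2 on the other strand, and Mrpl47 shares 452 with Actl6a and 158 with Ndufb5, where reads may be assigned to neither gene.

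**Figure D1:**
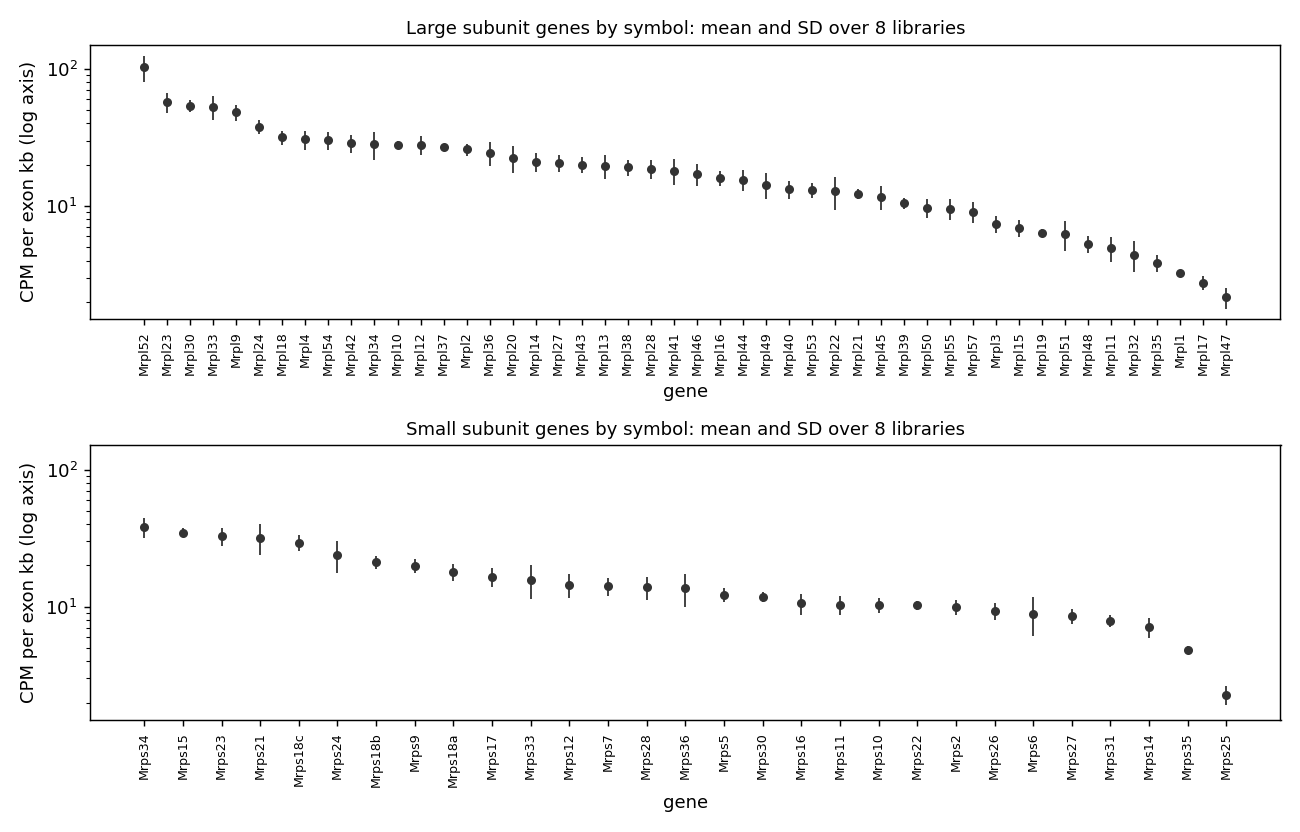
Mean level of each of the 48 Mrpl genes (top) and 29 Mrps genes (bottom) in CPM per exon kilobase on a log axis, with the SD over 8 libraries as bars. Mrpl52 stands apart at 102 CPM per kb, and the lowest values are those of Mrpl47 at 2.16 and Mrps25 at 2.27 CPM per kb.

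Between the titles few genes of the family differed. Of the 77 genes 2 were higher in E1KO-titled libraries and 0 were lower in edgeR's quasi-likelihood test at an adjusted p of 0.05, where 12.2% of all 13333 tested genes were called higher and 11.1% lower, 23.3% in all. At an unadjusted p under 0.05 there were 9 higher and 1 lower, beside 18.3% and 17.7% of all tested genes. The median log2 fold of the family was 0.08 with quartiles of -0.01 and 0.18, beside a median of 0.01 and quartiles of -0.17 and 0.19 for all tested genes. The median absolute log2 fold was 0.09 in the family and 0.18 over all tested genes, and the median standard error was 0.12 and 0.11. Log2 folds ran from -0.17 to 0.43, with 55 above 0 and 22 below. Without the E1KO 3 library 38 were above and 39 below, without E1WT 4 these were 39 and 38, and without E1WT 2 there were 68 above and 9 below. Without any other 1 library 47 to 64 were above 0, and 51 were with E1KO 1 and E1WT 4 both left out or with the exon-length trend removed. Large folds did not go with a call where the spread was wide: Mrpl32 had 0.35 ± 0.16 and Mrps6 0.35 ± 0.23 (SE), with edgeR adjusted p values of 0.13 and 0.32. With libraries scaled by their totals alone, 6 of 77 were called higher and the split of all calls moved from 1623 higher and 1485 lower to 2257 and 1046. The number of members called ran from 1, without the E1KO 4 or the E1WT 1 library, through 4 without E1KO 1 to 6 without E1WT 2. DESeq2 called 4 higher and 1 lower, beside 13.8% and 14.2% of all tested genes.

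**Figure D2:**
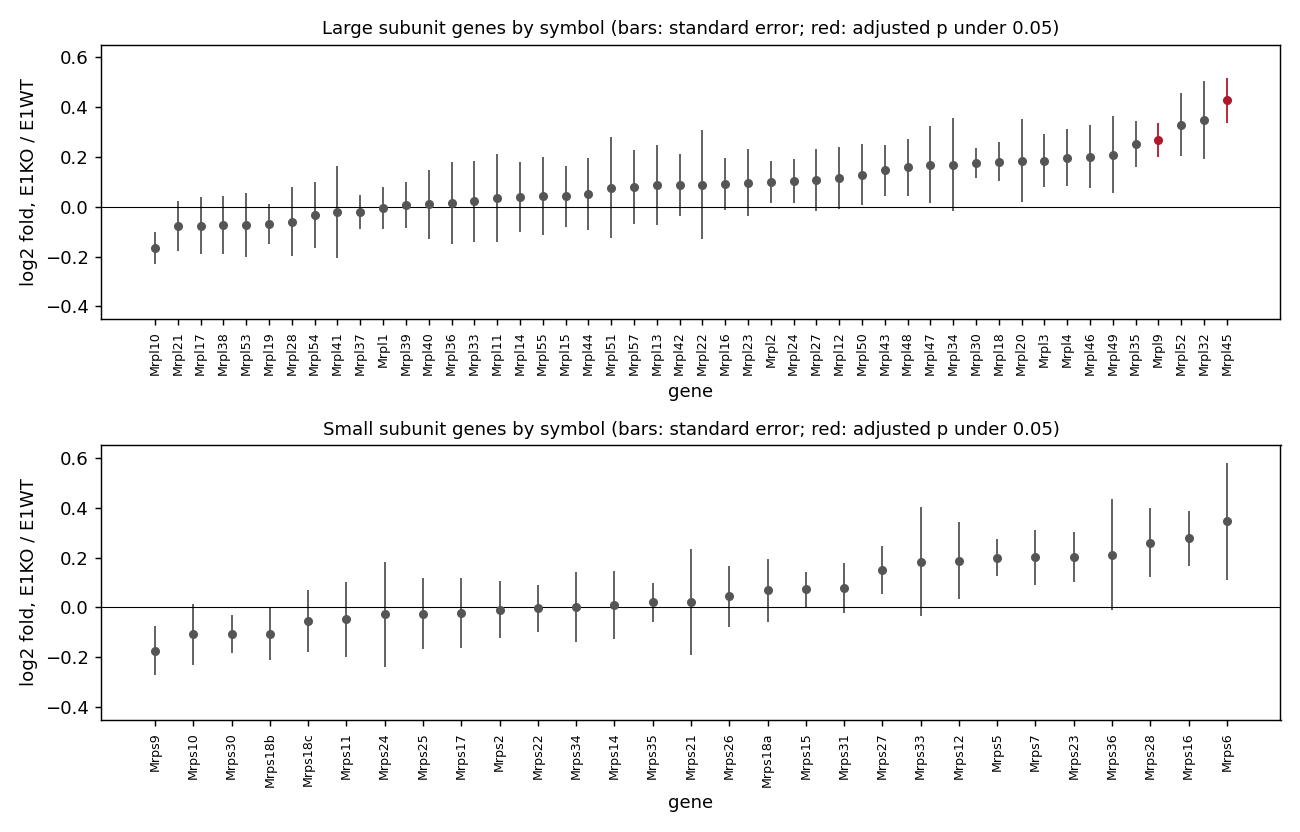
Log2 fold between E1KO-titled and E1WT-titled libraries for each Mrpl gene (top) and Mrps gene (bottom), with the standard error from edgeR as bars and called genes in red. Only Mrpl45 (0.43) and Mrpl9 (0.27) are red, and the values of the 77 genes run from -0.17 to 0.43.

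Mrpl45 had the largest rise. Its protein is specific to mitochondria, sits beside the exit of the peptide tunnel and helps to hold the ribosome at the inner membrane. Its levels were 32.7, 30.9, 36.6 and 32.0 CPM in the libraries E1KO 1 to 4 and 24.9, 26.4, 20.3 and 22.5 CPM in E1WT 1 to 4. Every E1KO-titled library lay above every E1WT-titled one. The means were 33.1 ± 2.45 and 23.5 ± 2.69 CPM (SD, n = 4 each), a log2 fold of 0.43 ± 0.09 (SE; edgeR adjusted p = 0.0058). The call held without any 1 library, at log2 folds of 0.36 to 0.48. Mrpl45 lies on the plus strand of chromosome 11, from 97315716 to 97329920 (GRCm38).

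Mrpl9, the homolog of bacterial L9, which lies at the base of the stalk where spent tRNA leaves, was the other gene that rose. Its levels were 80.8, 84.5, 89.95 and 91.0 CPM in E1KO 1 to 4 and 67.4, 74.3, 73.2 and 60.7 CPM in E1WT 1 to 4. The lowest E1KO-titled library was above the highest E1WT-titled one. Its log2 fold of 0.27 ± 0.07 (SE; edgeR adjusted p = 0.016) came from means of 86.6 ± 4.78 and 68.9 ± 6.25 CPM (SD, n = 4 each). Without the E1KO 4 library the edgeR adjusted p was 0.058, and without E1WT 1 it was 0.052. Mrpl9 lies on the plus strand of chromosome 3, from 94443318 to 94451130.

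The start regions of both genes are shown because they are the only 2 of the family that passed the test. Each runs from 250 bases before to 50 after an annotated start, 5′ to 3′ on the plus strand, from RefSeq on GRCm38.p6. Capitals mark matches on either strand to the cores CCGGAAG (ETS factors), CATGCGC (NRF1), ATGGCGG (YY1), GGGCGG (SP factors), CCAAT (the CCAAT box) and CACGTG (the E-box). The stretches are chr11:97315466-97315765 and chr3:94443086-94443385.
Mrpl45: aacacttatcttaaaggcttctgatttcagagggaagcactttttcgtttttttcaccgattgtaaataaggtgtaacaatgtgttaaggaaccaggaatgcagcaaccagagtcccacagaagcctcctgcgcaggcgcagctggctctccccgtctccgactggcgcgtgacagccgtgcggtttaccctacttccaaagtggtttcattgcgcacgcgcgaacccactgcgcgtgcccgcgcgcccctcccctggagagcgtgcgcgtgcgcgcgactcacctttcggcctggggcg
Mrpl9: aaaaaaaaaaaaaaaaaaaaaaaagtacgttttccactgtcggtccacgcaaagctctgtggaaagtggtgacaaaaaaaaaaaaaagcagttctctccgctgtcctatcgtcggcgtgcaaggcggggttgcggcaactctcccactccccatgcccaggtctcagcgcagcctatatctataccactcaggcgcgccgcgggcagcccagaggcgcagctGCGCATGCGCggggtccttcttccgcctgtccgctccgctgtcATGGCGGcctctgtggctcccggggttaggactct
The Mrpl9 stretch holds overlapping NRF1 cores on both strands and a YY1 core near its start, and the Mrpl45 stretch holds none of the 6 cores.

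Over the family, 68 of the 77 genes had 74 such start regions. The ETS core was in 25 of the 74 (33.8%), against 16.8% of the 12847 start regions of tested genes and 8.86% of all 32851. The YY1 core was in 13 (17.6%, against 7.55% and 4.05%) and the NRF1 core in 8 (10.8%, against 6.58% and 3.91%). The SP core was in 39 (52.7%, against 60.1% and 35.7%), the CCAAT box in 30 (40.5%, against 37.3% and 37.4%) and the E-box in 7 (9.46%, against 9.68% and 7.15%). These are matches of letters and describe no binding.

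A further 5 genes had no overlap between the titles without passing the test. With CPM of the library totals, 7 of the 77 had all E1KO-titled libraries above all E1WT-titled ones, where 18.7% of all tested genes did. None had the reverse, which 8.44% of all tested genes showed. After TMM scaling there were 3 of the first kind (Mrpl45, Mrpl9 and Mrpl35) and 1 of the second (Mrpl10), beside 14% and 12% of all tested genes, so most of these separations depend on the scaling.

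Mrpl30, a homolog of bacterial L30, stood at 51.5, 57.9, 58.5 and 58.6 CPM in E1KO 1 to 4 and at 46.7, 50.4, 48.2 and 46.5 CPM in E1WT 1 to 4. Its log2 fold of 0.18 ± 0.06 had an adjusted p of 0.054 in edgeR. Of the fits without 1 library (0.022 to 0.15) it passed in those without E1KO 1 (0.022) or E1WT 2 (0.046). It also passed in edgeR with the filter of 1 CPM (0.0445) and with E1KO 1 and E1WT 4 both left out (0.033). Mrpl35, a homolog of bacterial L35, stood at 14.6 to 17.8 and 11.8 to 13.3 CPM, with a log2 fold of 0.25 ± 0.09 (adjusted p = 0.071). Both lay just outside the threshold in this fit. DESeq2 called both (adjusted p = 0.034 for Mrpl30 and 0.049 for Mrpl35), as did edgeR with library totals alone (0.017 and 0.031). In the small subunit Mrps5, a homolog of the bacterial protein S5 at the mRNA entry, stood at 53.8 to 64.1 and 43.9 to 52.9 CPM. Its log2 fold was 0.20 ± 0.07 (edgeR adjusted p = 0.075), with 0.045 without the E1KO 2 library and 0.059 to 0.21 without any other 1 library. With library totals alone its edgeR adjusted p was 0.0285.

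Mrps15 and Mrps27 were separated by less. Mrps15 stood at 32.9 to 37.0 and 28.2 to 32.7 CPM (log2 fold 0.07 ± 0.07), and Mrps27, a protein of the pentatricopeptide repeat family, at 15.1 to 20.3 and 14.3 to 15 CPM (0.15 ± 0.10). Their edgeR adjusted p values were 0.49 and 0.30. The high value of Mrps27 was that of E1KO 3, and the other E1KO-titled libraries were at 16.7 CPM or less.

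Mrpl52 and Mrpl10, like Mrpl30, Mrpl35 and Mrps5, passed only under other settings. Mrpl52 stood at 38.0, 45.1, 57.3 and 53.9 CPM in E1KO 1 to 4 and at 36.5, 43.7, 36.2 and 31.5 CPM in E1WT 1 to 4, so that the titles overlapped. Its log2 fold was 0.33 ± 0.13 (edgeR adjusted p = 0.082). Of the fits without 1 library (0.015 to 0.21) it passed in those without E1KO 1 (0.015) or E1WT 2 (0.030), and with the dependence on exon length removed it was 0.39 (0.00022). In edgeR it also passed with library totals alone (adjusted p = 0.049) and with E1KO 1 and E1WT 4 both left out (0.019). Mrpl10, named after its values were seen, is the homolog of L10, which anchors the factor-binding stalk together with Mrpl12. It stood at 43.5, 44.9, 49.0 and 46.2 CPM in E1KO 1 to 4 and at 47.2, 53.4, 50.9 and 45.8 CPM in E1WT 1 to 4. Its log2 fold was -0.17 ± 0.06 (edgeR adjusted p = 0.086), with -0.18 (0.034) in DESeq2 and -0.21 (0.0054) in edgeR with the dependence on exon length removed. Mrpl10 lies 266502 bp from Mrpl45 on chromosome 11, and the signs of the log2 folds of these neighbours were opposite.

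**Figure D3:**
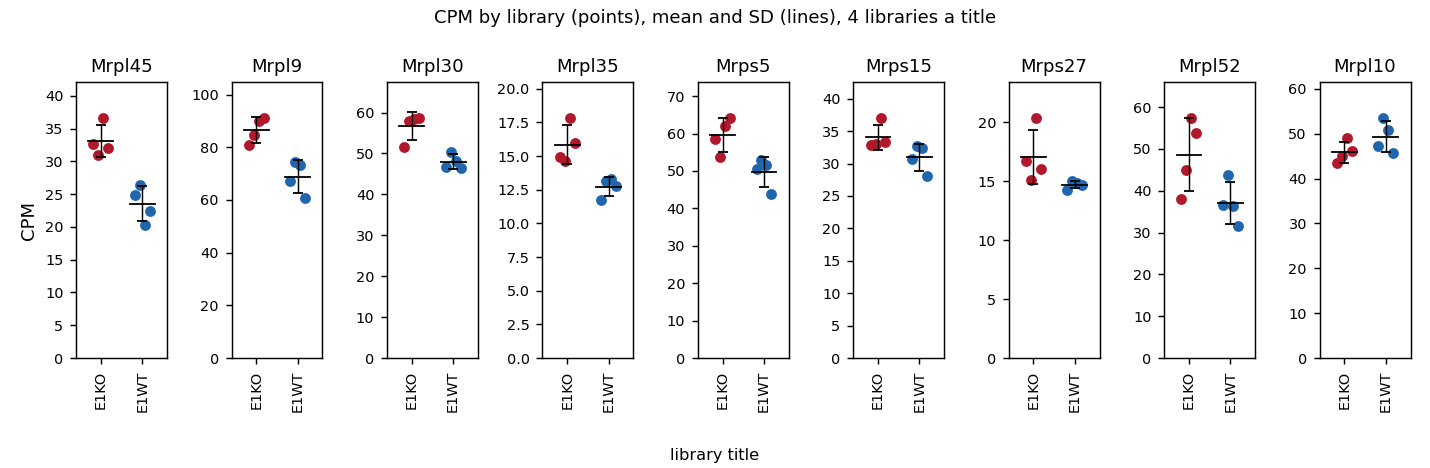
CPM of 9 genes in each library (points) with the mean and SD of the 4 libraries of a title (lines), E1KO in red and E1WT in blue. The titles are apart in Mrpl45, where the lowest E1KO value is 30.9 and the highest E1WT value 26.4 CPM, and overlap in Mrpl52 and Mrpl10.

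The large and the small subunit were then set side by side. Large subunit genes had 2 of 48 higher and 0 lower, with a median log2 fold of 0.09 (quartiles 0.01 and 0.17). Small subunit genes had 0 of 29 either way in edgeR and in DESeq2, with 2 higher and 0 lower at an unadjusted p under 0.05 and a median log2 fold of 0.02 (quartiles -0.03 and 0.19). The background is 23.3% of tested genes called. Without the E1KO 3 library the medians were 0.01 and -0.03, without E1WT 4 they were 0.02 and -0.01, and without E1WT 2 they were 0.17 and 0.11. The difference between subunits was not tested, since the genes of a subunit are not replicates.

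The summed CPM of the large subunit was 1127, 1249, 1451 and 1348 in E1KO 1 to 4 and 1147, 1329, 1156 and 982 in E1WT 1 to 4. That of the small subunit was 590, 639, 773 and 706 against 625, 716, 616 and 523. In both subunits the titles overlapped, and the highest library exceeded the lowest by 1.29 to 1.37 times within a title, while the mean of E1KO-titled over that of E1WT-titled libraries was 1.12 in the large and 1.09 in the small subunit. The ratio of large to small was 1.91, 1.96, 1.88 and 1.91 in E1KO 1 to 4 and 1.83, 1.85, 1.88 and 1.87 in E1WT 1 to 4. The titles were thus apart by a narrow margin, 1.878 against 1.876 at the closest.

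That separation depended on how proteins were assigned. The structure of the mammalian ribosome places Mrps30 and Mrps18a, in spite of their names, in the large subunit, and Mrps36 was later found to be a part of the alpha-ketoglutarate dehydrogenase complex. With these 3 moved or left out there were 50 large and 26 small subunit genes, and the ratio was 2.17 to 2.27 in E1KO-titled and 2.12 to 2.21 in E1WT-titled libraries, which overlapped. On the median CPM per exon kb of each subunit the ratio was lower in E1KO-titled libraries, at 1.28 ± 0.04 against 1.36 ± 0.08 (SD, n = 4 each), and the titles overlapped as well. The counts of called genes, 2 and 0, were as before, and the medians were 0.09 and 0.02. Proteins with a bacterial ancestor had 1 of 46 genes higher and 0 lower (median log2 fold 0.09), and mitochondrion-specific ones 1 of 30 and 0 (0.06). At an unadjusted p under 0.05 the first had 7 higher and 1 lower and the second 2 and 0, beside 18.3% and 17.7% of all tested genes. DESeq2 called 3 and 1, and 1 and 0, beside 13.8% and 14.2%. Within the large subunit by structure the median level was 20.1 CPM per kb for the 30 with a bacterial ancestor and 14.9 for the 20 specific to mitochondria, and in the small subunit 13.95 for 16 and 9.79 CPM per kb for 10. In all these splits Mrps18a and Mrps18b, although homologs of bacterial S18, were counted as specific to mitochondria.

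**Figure D4:**
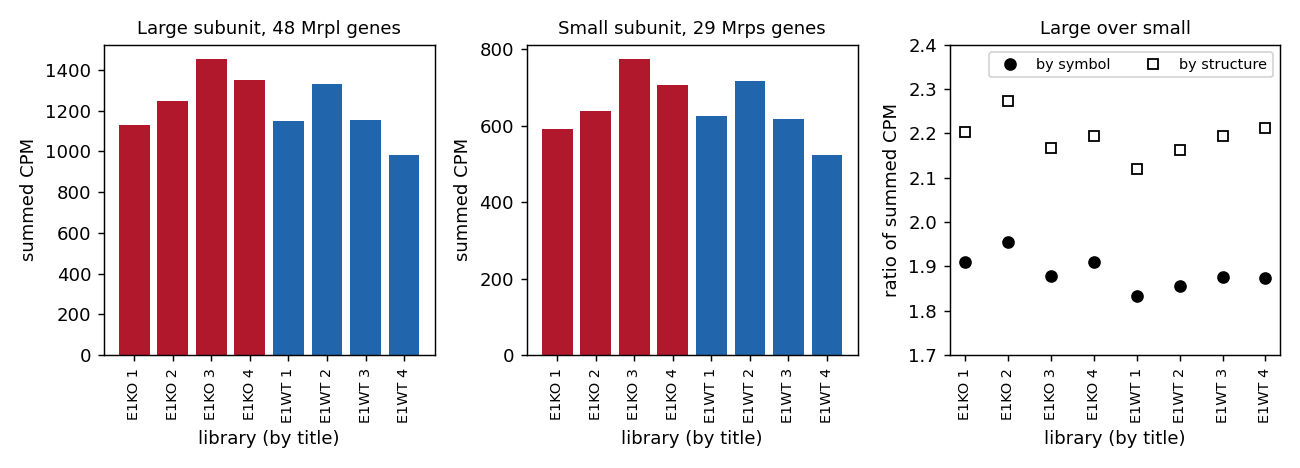
Summed CPM of the large (left) and small (middle) subunit genes in each library, E1KO in red and E1WT in blue, and the ratio of large to small by symbol (filled) and by structure (open, right; the axis does not start at 0). E1KO 3 and E1WT 2 are the highest of their titles in both sums, and the ratio by symbol is apart by title (1.878 against 1.876 at the closest) whereas that by structure overlaps.

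The genes moved together among the libraries of a title. E1KO 3 was the highest E1KO-titled library for 58 of the 77 genes and E1KO 1 the lowest for 60. E1WT 2 was the highest E1WT-titled library for 69 and E1WT 4 the lowest for 65. Over all tested genes these shares were 35.3%, 37.2%, 37.1% and 38.4%, against 75.3%, 77.9%, 89.6% and 84.4% in the family. The median gene of the family deviated from its title mean by -0.22, -0.06, 0.19 and 0.07 (log2) in E1KO 1 to 4 and by 0.01, 0.22, 0.01 and -0.24 in E1WT 1 to 4. Both subunits had this order, with large subunit medians of -0.22 to 0.19 and -0.25 to 0.22 and small subunit medians of -0.22 to 0.19 and -0.22 to 0.18 in the titles. For 76 of the 77 genes, all but Mrpl45, the log2 fold between titles was smaller than the wider of the 2 ranges within a title. The median of these wider ranges was 0.55. The 76 include Mrpl9, whose titles did not overlap. The share over all tested genes was not computed, so whether this count is particular to the family was not tested.

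A property of the whole libraries ran with this order. Across 13254 genes, which are not independent replicates, the deviation of log2 CPM from each gene's average had Spearman correlations with exon length of 0.30, 0.00, -0.37 and -0.24 in E1KO 1 to 4 and 0.08, -0.33, 0.09 and 0.37 in E1WT 1 to 4. The libraries in which short genes stood high, E1KO 3 and E1WT 2, are those in which the family stood high. Its median exon length is 1280 bp, against 3026 bp for all tested genes. The share of counts not assigned to a gene was also lowest in E1KO 3 (28.2%) and E1WT 2 (33.3%) within their titles. It was highest in E1KO 1 (30.8%) and E1WT 4 (37.0%). With the trend on exon length removed from every library, 4 genes were called higher (Mrpl45, Mrpl9, Mrpl52 and Mrpl18) and 2 lower (Mrpl10 and Mrps9). Of these Mrpl18 and Mrps9, like Mrpl32 and Mrps6 above, are named after their values were seen. Over all genes the numbers were 1810 higher and 2415 lower, and the family's median log2 fold was 0.07.

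**Figure D5:**
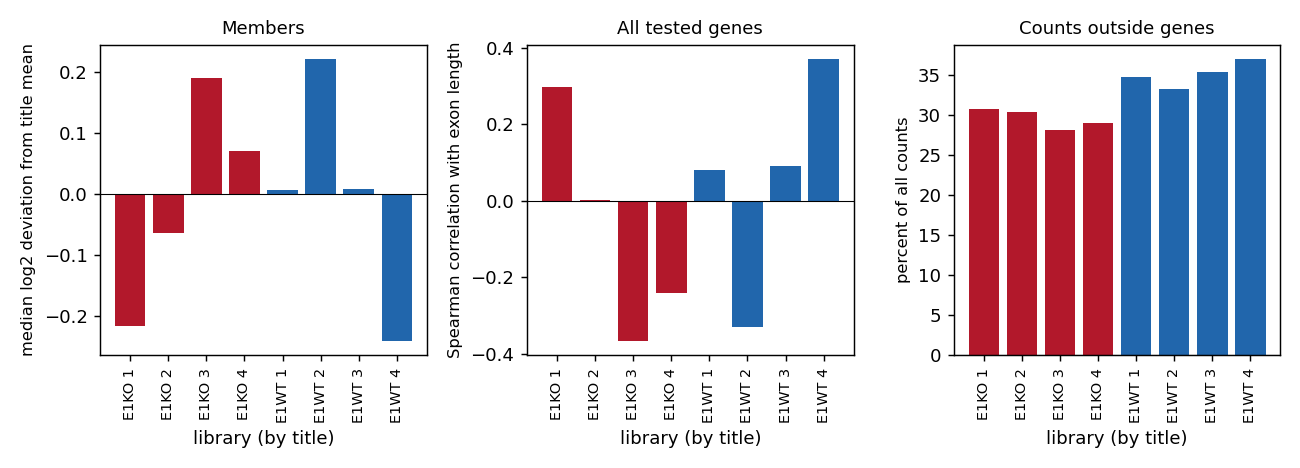
For each library, the left panel holds the median log2 deviation of the 77 genes from their title mean. The middle panel holds the Spearman correlation of the deviation of log2 CPM from each gene's average with exon length over 13254 genes. The right panel, titled counts outside genes, holds the percent of counts not assigned to a gene, ambiguous and multiply aligned reads included. E1KO 3 and E1WT 2 have the highest family deviations of their titles (0.19 and 0.22) and the lowest correlations (-0.37 and -0.33).

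Among single genes of interest the 3 homologs of bacterial S18 were compared first. Mrps18c, the one nearest to the bacterial place, stood at 18.8 ± 0.64 and 18.7 ± 3.71 CPM, Mrps18b at 22.4 ± 2.003 and 23.1 ± 3.15 and Mrps18a at 16.7 ± 2.41 and 15.2 ± 2.12 CPM (SD, n = 4 each). None passed the test, with log2 folds of -0.05 ± 0.12, -0.11 ± 0.10 and 0.07 ± 0.12 and edgeR adjusted p values of 0.50 to 0.80. Mrps36 stood at 10.5 ± 2.68 and 8.65 ± 2.63 CPM (log2 fold 0.21 ± 0.22). The most and least abundant genes per length were not called either, apart from those described above. Mrpl23 had a log2 fold of 0.10 ± 0.13, Mrpl33 of 0.02 ± 0.16, Mrps34 of 0.003 ± 0.14, Mrps23 of 0.20 ± 0.10 and Mrps21 of 0.02 ± 0.21, and of the least abundant Mrpl47 had 0.17 ± 0.15, Mrpl17 -0.08 ± 0.11, Mrps25 -0.03 ± 0.14 and Mrps35 0.02 ± 0.08.

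One pair of genes joins the subunits in the genome. Mrps11 and Mrpl46 are transcribed in opposite directions from neighbouring starts on chromosome 7, and their start regions share 141 bases. The Mrps11 stretch, chr7:78782881-78783180 on the plus strand, is shown because it also holds the start of Mrpl46, with capitals as above.
Mrps11: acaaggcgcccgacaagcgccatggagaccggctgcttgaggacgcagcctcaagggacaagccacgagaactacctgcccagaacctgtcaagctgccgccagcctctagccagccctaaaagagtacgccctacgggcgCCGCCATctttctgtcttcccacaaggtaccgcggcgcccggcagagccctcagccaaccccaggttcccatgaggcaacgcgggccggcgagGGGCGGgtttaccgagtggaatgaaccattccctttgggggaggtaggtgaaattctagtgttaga
It holds a YY1 core and an SP core. Mrps11 stood at 9.30, 10.1, 13.3 and 11.3 CPM in E1KO 1 to 4 and at 10.6, 12.9, 11.9 and 8.15 CPM in E1WT 1 to 4, and Mrpl46 at 17.1, 19.3, 27.3 and 20.5 against 16.9, 19.1, 17.6 and 16.5 CPM. Both were highest in E1KO 3 and E1WT 2 and lowest in E1KO 1 and E1WT 4. The log2 folds were -0.05 ± 0.15 and 0.20 ± 0.13, with edgeR adjusted p values of 0.85 and 0.28.

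The 5 ribosomal proteins with other symbols were likewise not called. Aurkaip1, in the small subunit, stood at 51.4, 57.4, 60.3 and 55.3 CPM in E1KO 1 to 4 and at 47.4, 53.0, 45.7 and 39.8 CPM in E1WT 1 to 4 (log2 fold 0.21 ± 0.08, edgeR adjusted p = 0.085), and of the fits without 1 library (0.022 to 0.19) it passed in that without E1WT 2. Dap3, a GTP-binding small subunit protein, had a log2 fold of 0.08 ± 0.06, Ptcd3 of -0.01 ± 0.06, Chchd1 of -0.05 ± 0.19 and Gadd45gip1, of the large subunit, of -0.03 ± 0.07. The median of the 5 was -0.01, with 1 higher and 0 lower at an unadjusted p under 0.05 and 0 called by DESeq2.

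Factors that build the ribosome were also mostly not called. Of 28 assembly factors 0 were higher and 1 was lower (12.2% and 11.1% of all tested genes), with a median log2 fold of 0.004. At an unadjusted p under 0.05 there were 3 higher and 3 lower (18.3% and 17.7% of all tested genes), and DESeq2 called 2 higher and 1 lower (13.8% and 14.2% of all). The gene called lower in edgeR was Mettl15, which methylates the small subunit rRNA, at 1.53, 2.18, 1.92 and 2.85 CPM in E1KO 1 to 4 and 3.93, 3.48, 4.02 and 2.27 CPM in E1WT 1 to 4. The titles overlapped, and the log2 fold was -0.75 ± 0.24 (edgeR adjusted p = 0.044). The call was lost without any 1 of E1KO 1, E1KO 2, E1KO 3, E1WT 1, E1WT 2 and E1WT 3 (adjusted p = 0.069 to 0.12).

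Of 16 mitochondrial translation factors 1 was higher and 1 lower (median log2 fold 0.03), beside 12.2% and 11.1% of all tested genes. At an unadjusted p under 0.05 there were 3 higher and 1 lower (18.3% and 17.7% of all). DESeq2 also called 3 higher and 1 lower (13.8% and 14.2% of all). Tufm, the elongation factor that brings aminoacyl-tRNA to the ribosome, rose from 77.6 ± 2.98 to 95.7 ± 8.01 CPM (SD, n = 4 each; log2 fold 0.24 ± 0.06, edgeR adjusted p = 0.019). Its single values were 87.1, 90.8, 104 and 101 CPM in E1KO 1 to 4 and 80.5, 79.6, 74.2 and 76.0 CPM in E1WT 1 to 4, with no overlap. The edgeR adjusted p was 0.052, 0.067 and 0.066 without E1KO 3, E1KO 4 and E1WT 3. Gfm2, which splits the subunits after translation, fell from 48.5 ± 2.05 to 44.3 ± 0.87 CPM (log2 fold -0.20 ± 0.06, edgeR adjusted p = 0.030). It lost the call without any 1 of E1KO 2, E1KO 3, E1KO 4, E1WT 1, E1WT 2 and E1WT 4 (0.062 to 0.084).

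The synthetases that charge mitochondrial tRNAs were called more often than the ribosomal proteins, with 2 of 17 higher and 4 lower, beside 12.2% and 11.1% over all tested genes (median log2 fold -0.10). The difference from the ribosomal proteins was not tested, and the median standard error was 0.083 for the synthetases and 0.124 for the family. Lars2, for leucine, rose from 288, 288, 323 and 438 CPM in E1WT 1 to 4 to 1292, 1085, 744 and 915 CPM in E1KO 1 to 4 (log2 fold 1.53 ± 0.18, edgeR adjusted p = 0.00013). Unlike the ribosomal genes it was highest in E1KO 1 and E1WT 4 and lowest in E1KO 3 within its title. Lars2 stood at 172.5 ± 101.3 CPM per kb (SD over all libraries), where Iars2, the next highest of the 17, stood at 17.47. Whether all reads counted for Lars2 came from its mRNA was not tested. Vars2, for valine, fell from 61.2 ± 0.78 to 51.7 ± 1.38 CPM (-0.30 ± 0.05) and Aars2, for alanine, from 22.8 ± 0.53 to 18.1 ± 1.72 CPM (-0.40 ± 0.08), with edgeR adjusted p values of 0.0018 and 0.0052.

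Of 12 genes for mitochondrial transcription and DNA maintenance 0 were higher and 1 lower (median 0.02), beside 12.2% and 11.1% of all tested genes. At an unadjusted p under 0.05, and in DESeq2, there was 1 each way. Polg, the mitochondrial DNA polymerase, fell from 159 ± 2.65 to 147 ± 3.79 CPM (log2 fold -0.17 ± 0.05, edgeR adjusted p = 0.019), with 0.055 without E1KO 2, 0.057 without E1KO 4, 0.060 without E1WT 3 and 0.17 with the dependence on exon length removed. Of 11 regulators of nuclear genes for mitochondria 0 were higher and 2 lower (median -0.10), beside the same 12.2% and 11.1%. These counts were the same at an unadjusted p under 0.05 and in DESeq2. Ppargc1b, the coactivator PGC-1beta, fell from 17.6 ± 1.29 to 13.5 ± 1.67 CPM (-0.45 ± 0.11, edgeR adjusted p = 0.012). Nrf1, a transcription factor for genes of respiration, fell from 68.4 ± 1.26 to 62.3 ± 2.33 CPM (-0.20 ± 0.05, 0.018), with 0.059 without E1KO 2 and 0.061 without E1WT 1.

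Of 26 genes of mitochondrial protein import and folding 2 were higher and 0 lower (median 0.09), beside 12.2% and 11.1% of all tested genes. DESeq2 gave the same counts, and at an unadjusted p under 0.05 there were 4 higher and 0 lower. Hspd1, the chaperonin HSP60, rose from 153 ± 10.8 to 203 ± 8.27 CPM (SD, n = 4 each; log2 fold 0.34 ± 0.06, edgeR adjusted p = 0.0016). Timm8a1, a small chaperone of the space between the membranes, rose from 16.9 ± 1.94 to 22.4 ± 2.395 CPM (0.34 ± 0.10, 0.032). It lost the call without any 1 of E1KO 2, E1KO 3, E1KO 4, E1WT 1, E1WT 3 and E1WT 4 (0.055 to 0.082). Timm8a1 lies on chromosome X, and a difference with the title cannot be told apart from one with Xist. The genes of the mitochondrial genome itself, its rRNAs included, were not analysed here.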

How the data were processed

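RNA-sequencing libraries of naive CD4+ T cells were compared by title. The deposited files hold raw read counts per gene symbol. Per the submitters' processing notes, TopHat2 2.1.0, HTSeq 0.9.1 and the build mm10 were used. Annotation and filters were not stated in those notes or the labels, nor was the strand setting, so reads of overlapping genes on opposite strands cannot be told apart. The 5 rows for reads not assigned to a gene stayed out of library sizes and tests.

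CPM were computed over gene rows. The whole table was fitted in R 4.3.3 with edgeR 4.0.16 (TMM scaling with factors of 0.965 to 1.03, default filter with a minimum count of 10 and total of 15, quasi-likelihood test, Benjamini-Hochberg adjustment over 13333 genes at 0.05). Folds use TMM scaling and printed CPM do not, so ratios of CPM exceed folds slightly. The labels do not state that each library is a separate animal. The p-values thus cover only library-to-library spread, which may be technical. Within a title each pair of libraries differed by more than sampling noise (chi-square per degree of freedom 4.1 to 60.1).

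Exon lengths are unions over transcripts with a RefSeq accession in GENCODE M21 (GRCm38, the assembly of mm10). Symbols matched by name in 23376 cases, by an older symbol in 670 and not in 375. All 77 family genes matched by name.

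The family and the lists were chosen with earlier results of these data known, and the promoter motifs after the values were seen. Named were called genes, genes without overlap between titles, the 4 highest and 2 lowest per exon kb of each subunit, the S18 homologs and Mrps36, and in each other list up to 3 called genes (1 where none was called), with all 5 subunits of other symbols. Same-numbered libraries did not deviate together (correlations -0.099 to 0.014, with -0.316 to 0.261 for other numbers). No pairing by number was seen, but library-wide trends could hide one, so it is not excluded.

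On simulated counts of 13152 genes in the E1KO against E1WT design the test found 26.5% of the genes changed 1.25-fold and 58% of those changed 1.5-fold. Changes of 2-fold were found for 86% and of 4-fold for 97.9%, and 2.96% of 135 calls were unchanged genes. Genes were drawn independently there, without a trend on exon length, and 47 to 50 genes were changed at each fold. In the data 23.3% of tested genes were called and such a trend was present, so these rates may not carry over. The alternatives were other scaling and filters, limma-voom (limma 3.58.1), DESeq2 1.42.0, a replicate block, left-out libraries, the exon-length trend (loess per library on log2 exon length, entered as an offset), a threshold of 0.01 and the assignment of subunits.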

Additional observations from a re-analysis of the deposited data

Results flagged for a closer look

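Of 84 groups of 4 libraries examined, 3 held a library whose gap to the next, as a share of the range, exceeded Dixon's 95% critical value, and chance flags about 1 in 20 groups. Mrpl30 was low in E1KO 1 at 51.5 CPM, where the other 3 lay at 57.9 to 58.6 CPM. Mrps15 was high in E1KO 3 at 37.0 CPM, against 32.9 to 33.4 CPM. Mrps18c was high in E1KO 4 at 19.7 CPM, against 18.3 to 18.5 CPM.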

How the results depend on the processing

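The 2 genes called higher, both in the large subunit, became 6 (5 large and 1 small) with library totals alone, 4 higher and 1 lower in DESeq2 (all large), 4 (all large) with E1KO 1 and E1WT 4 both left out, 4 higher and 2 lower with the exon-length trend removed (4 large higher, 1 large and 1 small lower) and 1 at an adjusted p of 0.01. With 1 library left out, 1 to 6 family genes, 1 to 5 large and 0 to 1 small subunit genes were called higher and 0 were lower. Over all genes the threshold of 0.01 gave 874 higher and 728 lower, the exon-length trend removed gave 2415 lower, and leaving out 1 library gave 1194 to 1659 higher and 1010 to 1566 lower. The causes of these shifts were not tested. Family medians stayed within 1 SD of the library medians (0.18) under every alternative, and without 1 library ran from -0.001 to 0.16 (large 0.01 to 0.17, small -0.03 to 0.11).

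With the replicate block, 2 family genes were called higher, Mrpl45 at 0.43 (edgeR adjusted p = 0.029) and Mrpl9 at 0.27 (0.049), and 1151 and 1005 genes over all. Tufm, Gfm2, Polg, Nrf1, Timm8a1 and Mettl15 had adjusted p values of 0.058 to 0.11 there. Same-numbered libraries did not deviate together, which does not exclude a pairing.

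Log2 folds that changed sign belonged to genes not called under either setting. With E1KO 1 and E1WT 4 left out these were Mrps21 (-0.054), Mrps34 (-0.029) and Mrps25 (0.076). With library totals alone they were Mrps25 (0.038), Mrps18c (0.007), Gadd45gip1 (0.028), Chchd1 (0.01) and Ptcd3 (0.05). Mrps34 was at -0.008 with DESeq2 size factors and -0.007 in DESeq2, and Mrps35 at -0.017 with the exon-length trend removed. Without 1 library the ranges were -0.086 to 0.168 for Mrpl33, -0.009 to 0.20 for Mrpl23, -0.163 to 0.012 for Mrpl17, -0.13 to 0.21 for Mrps21, -0.11 to 0.11 for Mrps34, -0.116 to 0.078 for Mrps25, -0.026 to 0.054 for Mrps35, -0.16 to 0.068 for Mrps18c, -0.063 to 0.01 for Gadd45gip1, -0.206 to 0.089 for Chchd1 and -0.038 to 0.021 for Ptcd3. Over all single-gene values of the named genes under the alternatives, 596 kept direction and call, 50 lost the call, 20 gained it and 36 changed sign. No symbol of the family marks a pseudogene, so the alternative without them was not run.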

Other observations

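Ict1, the older symbol of Mrpl58, a peptide release factor built into the large subunit, lies outside the symbol rule and was chosen after its values were seen. It stood at 22.4, 35.2, 37.2 and 33.4 CPM in E1KO 1 to 4 and at 29.6, 37.6, 33.8 and 28.5 CPM in E1WT 1 to 4, with overlap between the titles. Its log2 fold was -0.08 ± 0.14 (edgeR adjusted p = 0.72). As in the 77 genes, E1KO 3 and E1WT 2 were the highest libraries of their titles and E1KO 1 and E1WT 4 the lowest. The 77 genes lie on 17 chromosomes, with 10 on chromosome 11, among them Mrpl45 and Mrpl10, and 8 on chromosome 17.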
